A study of Homo sapiens with 10 samples.

Results

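The AP-1 subunit genes are the 4 genes of the Fos family (FOS, FOSB, FOSL1 and FOSL2) and the 3 genes of the Jun family (JUN, JUNB and JUND). They were chosen by name, through the Ensembl identifiers of the deposited counts, and make up 7 of the 63299 genes listed. These members and the gene lists used below were drawn up with earlier results of these data known, so their counts are descriptions. Of all genes, 16143 passed a filter on low counts and were tested, and these included all 7 AP-1 subunit genes. RNA-sequencing was carried out on polyadenylated RNA of U2OS cells, a human osteosarcoma line, 48 h after knockdown. The control group (siCtrl, 5 libraries) received a pool of control siRNAs and the other group (siDDX41, 5 libraries) a pool of siRNAs against DDX41, which encodes a DEAD-box helicase. The total count was 23393764 to 24598860 per library in siCtrl and 21807041 to 24896398 in siDDX41. The labels do not say whether the libraries of a group came from separate cultures, so p-values measure only the spread between these libraries, which may be technical. With 1 pool per target, the loss of DDX41 and other effects of its siRNAs cannot be told apart.

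AP-1 is a transcription factor that works as a dimer. Jun proteins pair with each other or with Fos proteins through a leucine zipper, whereas Fos proteins need a partner from another family, and the neighbouring basic region binds a short DNA element known as the TPA response element. FOS and JUN are immediate early genes: their transcription rises within minutes of a growth factor or stress signal carried by MAP kinases, and their mRNA and protein are short-lived. In bone, Fos proteins act in the formation of osteoblasts and osteoclasts, and FOS was first found as the oncogene of a virus that causes bone sarcoma in mice.

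The siRNA target was lower in each library of its group. DDX41 stood at 49.1, 49.4, 47.3, 47.2 and 50.5 CPM (counts scaled to the size of the library) in siCtrl replicates 1 to 5. In siDDX41 replicates 1 to 5 it stood at 11.5, 13.7, 12.4, 11.2 and 12.3 CPM. The groups lay far apart, with a log2 fold change of -1.99 ± 0.05 (SE, n = 5 per group; Benjamini-Hochberg adjusted p = 4.47e-24, edgeR quasi-likelihood test).

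The cells carried part of a mesenchymal profile. VIM, which encodes vimentin, stood at 2465 CPM in siCtrl, SPARC at 2807 CPM and COL1A1 at 1875 CPM, while COL1A2, SP7, IBSP and BGLAP were below 1 CPM in both groups. The summed level of the 9 mesenchymal and osteoblast markers was 7036 to 7317 CPM in siCtrl and 7094 to 7494 CPM in siDDX41, nearly all of it from VIM, SPARC and COL1A1. Of the 5 tested, 3 were called lower, VIM (2321 CPM in siDDX41), RUNX2 (32.4 to 24.6 CPM) and ALPL (5.01 to 3.08 CPM), and SPARC was called higher (3181 CPM). Of the 6 blood cell markers, 3 had no count in any library, and their sum stayed below 1 CPM. The 6 epithelial markers summed to 57.8 to 64.4 CPM in siCtrl and 23.3 to 27.8 CPM in siDDX41, with CLDN4 (29.2 and 13.3 CPM) the most abundant and CDH1 below 1 CPM. KRT14 (17.2 to 1.78 CPM), KRT5 (5.24 to 0.488 CPM) and CLDN4 were called lower, while EPCAM stood at 7.99 and 8.31 CPM and was not called. KRT8, a keratin gene outside this list, stood at 582 CPM in siCtrl and 802 CPM in siDDX41. It was picked, as described below, for its likeness to JUN, so its rise is no separate result about epithelial genes. The 5 endothelial markers summed to 7.51 to 7.78 CPM in siCtrl and 3.04 to 4.39 CPM in siDDX41, with VWF the most abundant at 3.70 and 1.85 CPM. The share of counts from the mitochondrial genome was 1.13% to 1.69% in siCtrl and 2.00% to 2.29% in siDDX41. The part of these differences in the AP-1 results was not tested.

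Among the 7 AP-1 subunit genes, 3 were called higher after DDX41 knockdown (JUN, FOS and FOSL1) and 1 was called lower (FOSL2), at an adjusted p-value under 0.01. Over all tested genes, 30.3% were called higher and 32.1% lower, so calls were common in this comparison. The same 4 genes had no overlap between the libraries of the groups, 3 of them higher and 1 lower, where 26.7% of all tested genes were higher and 29.3% lower without overlap. JUNB, JUND and FOSB were not called. The median log2 fold change of the 7 genes was 0.24, and that of all tested genes was 0.00. The median absolute log2 fold change of all called genes was 0.41, and only JUN exceeded it. The median of the genes called higher was 0.36, close to the value of FOS.

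**Figure D1:**
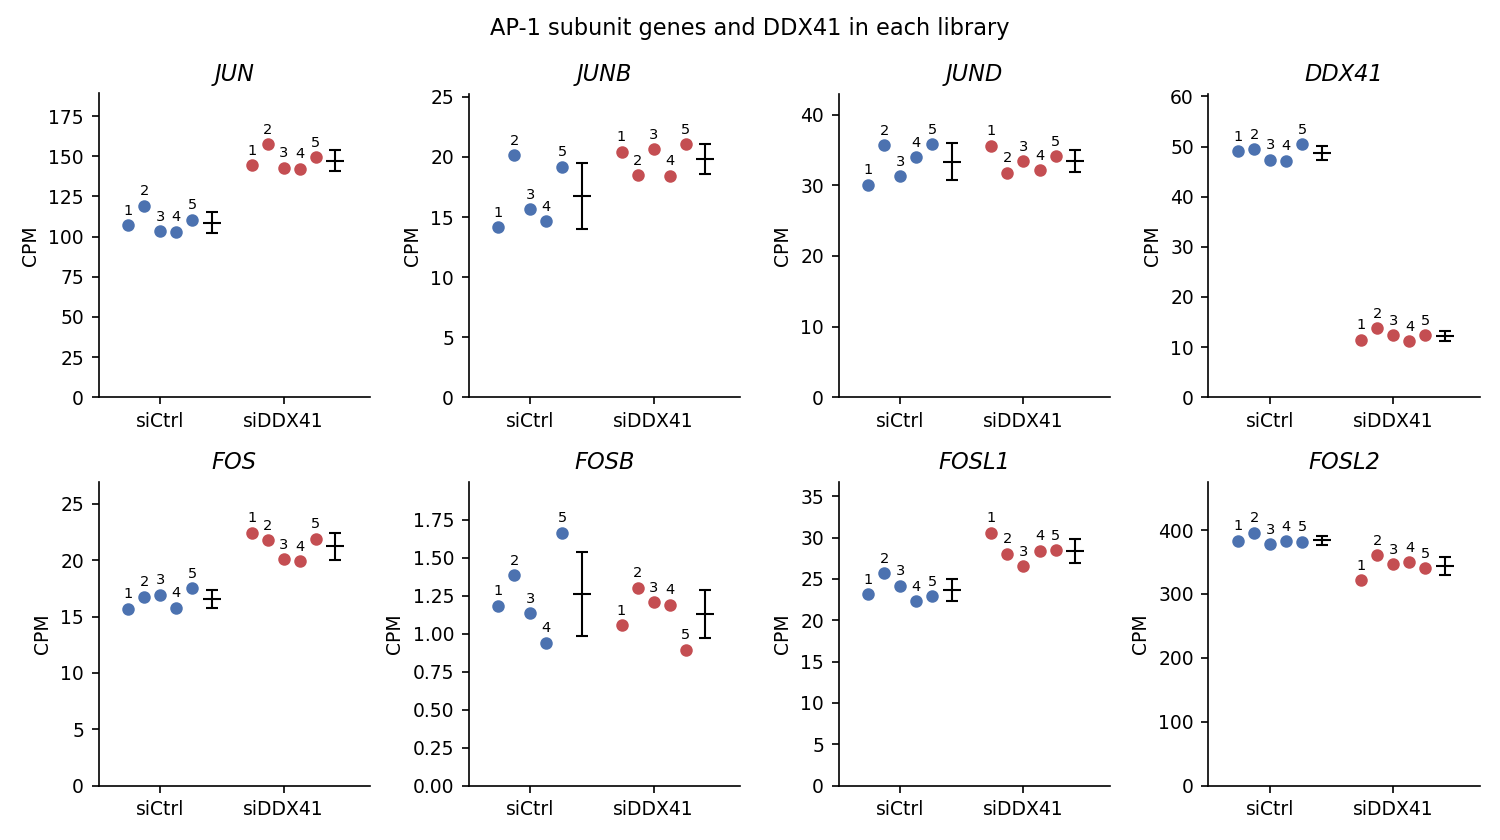
Level of the 7 AP-1 subunit genes and of DDX41 in each of the 10 libraries, in CPM (y axis, from 0) by group (x axis). Each numbered point is 1 library with its replicate number, and the bar beside the points is the mean with its SD over 5 libraries; the groups are apart for JUN, FOS, FOSL1, FOSL2 and DDX41 and overlap for JUNB, JUND and FOSB.

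JUN encodes c-Jun, the main transactivating subunit and the target of the JNK kinases. JUN (ENSG00000177606.6) lies on the minus strand of chromosome 1, annotated from 58776845 to 58784048 on GRCh38, and its canonical transcript has 1 exon. Exon numbers below also refer to the canonical transcript of each gene. The promoter of JUN is shown because it carries a pair of variant AP-1 elements through which JUN regulates its own transcription, as is known from other cells. The stretch below is chr1:58784088-58784247, minus strand, from 200 to 41 bases before the RefSeq start on GRCh38.p14. Capitals mark TTACCTCA (the distal element), TGACG (the core of the cyclic AMP response element) and TGACATCA (the proximal element).
JUN: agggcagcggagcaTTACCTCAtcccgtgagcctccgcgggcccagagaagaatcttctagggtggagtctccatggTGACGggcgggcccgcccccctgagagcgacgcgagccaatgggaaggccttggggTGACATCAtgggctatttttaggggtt

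JUN stood at 107, 119, 103, 103 and 110.4 CPM in siCtrl replicates 1 to 5. It stood at 144, 158, 143, 142 and 150 CPM in siDDX41 replicates 1 to 5. Each knockdown library was above each control library, and replicate 2 was the highest of its group in both. JUN rose 1.36-fold, with a log2 fold change of 0.44 ± 0.04 (SE, n = 5 per group; adjusted p = 5.26e-11, edgeR quasi-likelihood test). A larger absolute change was found in 32.3% of all tested genes. The two-sided exact permutation test over the libraries gave p = 0.00794, the smallest that 5 against 5 libraries allow, and gave this same value for FOS, FOSL1, FOSL2 and DDX41.

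JUNB encodes a Jun protein that activates transcription more weakly than c-Jun and can oppose it. JUNB (ENSG00000171223.5), also of 1 exon, lies on the plus strand of chromosome 19 from 12791486 to 12793315. It stood at 14.1, 20.2, 15.6, 14.6 and 19.2 CPM in siCtrl replicates 1 to 5. It stood at 20.4, 18.5, 20.6, 18.4 and 21.1 CPM in siDDX41 replicates 1 to 5. The groups overlapped: siCtrl replicates 2 and 5 were as high as the knockdown libraries while the other 3 controls lay below all of them. The log2 fold change was 0.24 ± 0.09 (SE) and missed the threshold (adjusted p = 0.0277, edgeR quasi-likelihood test), and the exact permutation test gave p = 0.0794. The coefficient of variation of JUNB was 16.4% in siCtrl and 6.30% in siDDX41.

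The call of JUNB depended on the test and on the libraries. It passed the threshold with DESeq2 (adjusted p = 0.00883), limma-voom (0.00643), no filter on low counts (3.87e-05) and offsets for GC content (6.21e-05). It did not pass with DESeq2 size factors, no scaling factor, a filter at 1 CPM or the replicate number as a block, and over all 20 alternatives the adjusted p ran from 6.42e-07 to 0.0755, with 8 below the threshold. Without siCtrl replicate 2 the edgeR adjusted p was 0.000443, and without siCtrl replicate 5 it was 0.00601. Without both, the log2 fold change was 0.42 ± 0.06 (edgeR adjusted p = 6.42e-07), but these libraries were picked after their JUNB values were seen, so this value lends JUNB no support. The same 2 controls were the highest of their group in other genes of high GC content. This was seen across the 475 tested genes with at least 65% GC in their transcripts. Their median log2 deviation from the mean of the group was 0.15 in siCtrl replicate 2 and 0.08 in replicate 5. It was -0.06, -0.09 and -0.07 in siCtrl replicates 1, 3 and 4. In siDDX41 replicates 1 to 5 it was -0.01, 0.03, 0.04, -0.08 and 0.02, so siDDX41 replicate 4 deviated about as far as siCtrl replicate 5. JUNB has 64.9% GC and JUND 69.9%, the highest of the 7 genes, where the median of all tested genes was 47.7%. JUNB also shares 259 exon bases, 14.2% of its exons, with HOOK2 on the opposite strand. Whether reads were counted by strand is not given in the sources used here, so reads from these bases cannot be told apart; HOOK2, which encodes a microtubule-binding linker protein, fell from 10.9 to 8.31 CPM (log2 fold change -0.39 ± 0.08; edgeR adjusted p = 5.89e-05).

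JUND encodes the Jun protein that is widely expressed in resting cells and slows proliferation in fibroblasts. JUND (ENSG00000130522.5) has 1 exon on the minus strand of chromosome 19, from 18279694 to 18281622. Its promoter is shown as a contrast to that of JUN: it holds the full cyclic AMP response element TGACGTCA, which contains TGACG on both strands, and a further CGTCA, the reverse complement of TGACG. The stretch is chr19:18281683-18281842, minus strand, from 220 to 61 bases before the RefSeq start, with these matches in capitals.
JUND: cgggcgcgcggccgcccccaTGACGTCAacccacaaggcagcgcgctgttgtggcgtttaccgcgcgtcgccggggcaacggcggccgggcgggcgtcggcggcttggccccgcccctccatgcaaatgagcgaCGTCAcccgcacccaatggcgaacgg

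JUND stood at 30.1, 35.6, 31.3, 33.9 and 35.8 CPM in siCtrl replicates 1 to 5. It stood at 35.6, 31.8, 33.4, 32.1 and 34.1 CPM in siDDX41 replicates 1 to 5. The knockdown libraries lay within the range of the controls, whose highest values were again in replicates 2 and 5. The log2 fold change was 0.00 ± 0.05 (SE; adjusted p = 0.978, edgeR quasi-likelihood test; exact permutation p = 0.921), and its sign differed between settings, from -0.045 with the replicate block and offsets for GC content to 0.072 without siCtrl replicates 2 and 5.

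**Figure D2:**
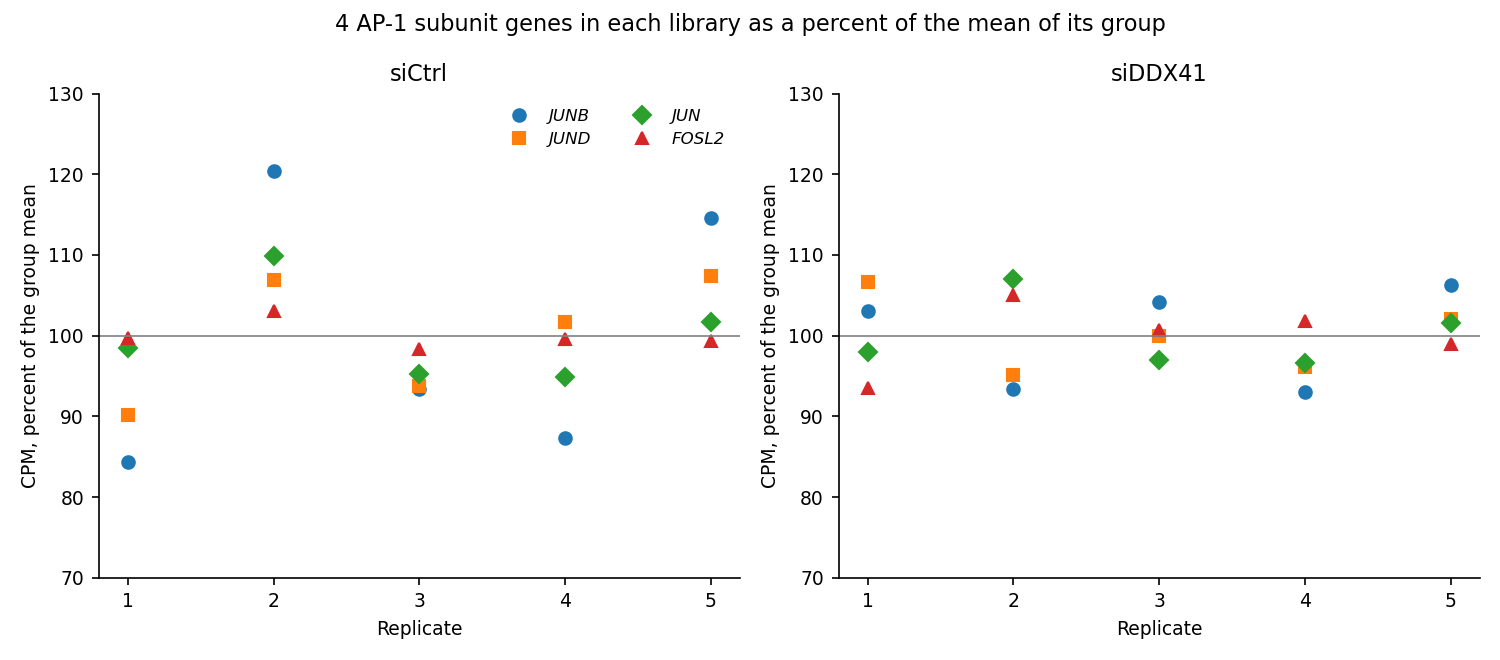
Level of JUN, JUNB, JUND and FOSL2 in each library as a percent of the mean of its group (y axis, from 70 to 130) by replicate number (x axis), with siCtrl on the left and siDDX41 on the right. JUNB reached 120% and 115% of the control mean in siCtrl replicates 2 and 5, and FOSL2 stayed between 93.5% and 105% in all 10 libraries.

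FOS encodes c-Fos, the subunit that is induced most briefly. FOS (ENSG00000170345.9) has 4 exons on the plus strand of chromosome 14, from 75278826 to 75282230. Its promoter is shown beside that of JUN because both genes rose: the stretch is chr14:75278728-75278817, plus strand, from 100 to 11 bases before the RefSeq start, and capitals mark the core TGACG and the TATA box TATAAA.
FOS: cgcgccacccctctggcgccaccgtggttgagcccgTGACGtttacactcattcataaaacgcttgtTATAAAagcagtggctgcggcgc

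FOS stood at 15.7, 16.8, 16.9, 15.8 and 17.5 CPM in siCtrl replicates 1 to 5. It stood at 22.4, 21.8, 20.1, 19.9 and 21.9 CPM in siDDX41 replicates 1 to 5. Each knockdown library was above each control library. FOS rose 1.28-fold, with a log2 fold change of 0.36 ± 0.05 (SE, n = 5 per group; adjusted p = 5.88e-07, edgeR quasi-likelihood test). These values rest on 369 to 515 counts per library.

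FOSB encodes a Fos protein that is known for the lasting accumulation of a shortened form in neurons. FOSB (ENSG00000125740.13) has 4 exons on the plus strand of chromosome 19, from 45467995 to 45475179. It stood at 1.18, 1.39, 1.14, 0.94 and 1.67 CPM in siCtrl replicates 1 to 5. It stood at 1.06, 1.3, 1.21, 1.19 and 0.89 CPM in siDDX41 replicates 1 to 5. The groups overlapped, and the highest and the lowest libraries were siCtrl replicate 5 and siDDX41 replicate 5. With 21 to 40 counts per library its precision was the lowest of the 7 genes, and the log2 fold change was -0.16 ± 0.18 (SE; adjusted p = 0.428, edgeR quasi-likelihood test; exact permutation p = 0.413). Leaving out 1 library gave values from -0.25 (without siCtrl replicate 4) to -0.041 (without siCtrl replicate 5), and it was called in none of these fits.

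FOSL1 and FOSL2 encode Fra-1 and Fra-2, Fos proteins without the strong activation domain of c-Fos, which are made later after a signal and are common in mesenchymal cells. FOSL1 (ENSG00000175592.8) has 4 exons on the minus strand of chromosome 11, from 65892049 to 65900573. It stood at 23.1, 25.7, 24.2, 22.3 and 22.9 CPM in siCtrl replicates 1 to 5. It stood at 30.6, 28.1, 26.5, 28.4 and 28.4 CPM in siDDX41 replicates 1 to 5. The groups did not overlap, but siCtrl replicate 2 and siDDX41 replicate 3 came close to each other. FOSL1 rose 1.2-fold, with a log2 fold change of 0.26 ± 0.05 (SE, n = 5 per group; adjusted p = 1.90e-05, edgeR quasi-likelihood test).

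FOSL2 was the one subunit gene called lower. FOSL2 (ENSG00000075426.11) has 4 exons on the plus strand of chromosome 2, from 28392448 to 28417317. It is shown with the 30 bases around its RefSeq start, chr2:28392848-28392877, plus strand, because they hold the TPA response element TGACTCA, in capitals, beginning at base 5 of the transcript, in its first exon. Another annotated transcript of FOSL2 starts further upstream.
FOSL2: tcgtgccattgtagTGACTCAtctcgggca

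FOSL2 stood at 383, 396, 378, 382 and 381 CPM in siCtrl replicates 1 to 5. It stood at 321, 361, 346, 350.0 and 340.1 CPM in siDDX41 replicates 1 to 5. Each knockdown library was below each control library, and siDDX41 replicate 1 was the lowest of all. The fall was the smallest of the 4 called changes, with a log2 fold change of -0.16 ± 0.03 (SE, n = 5 per group; adjusted p = 1.13e-05, edgeR quasi-likelihood test), and 69.4% of all tested genes had a larger absolute change. With offsets for GC content it was -0.081 ± 0.027 (edgeR adjusted p = 0.00862), and with these offsets and the replicate number as a block it was -0.082 and missed the threshold (edgeR adjusted p = 0.0110). Over its 20 alternatives the adjusted p ran from 1.96e-07 to 0.0110, and this was the only one without the call.

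**Figure D3:**
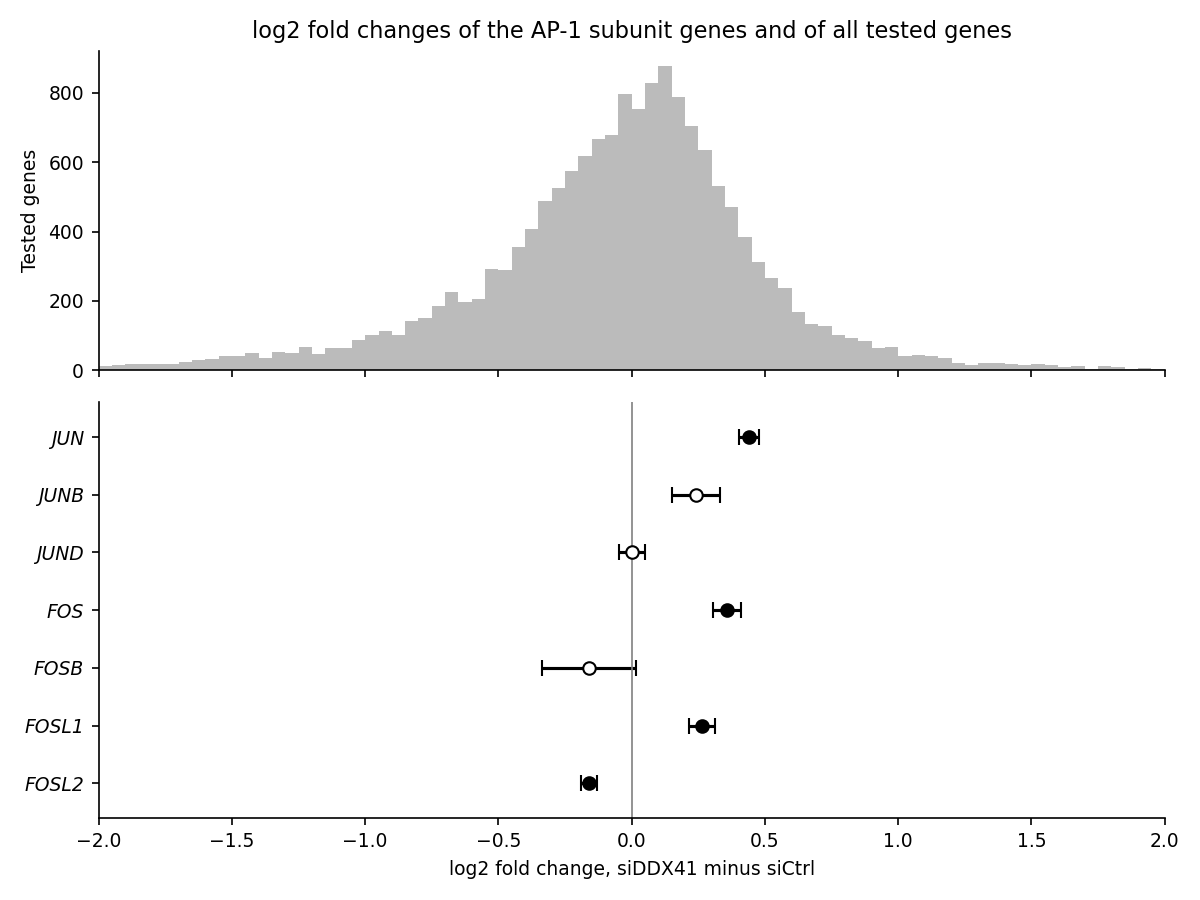
The upper panel gives the number of tested genes (y axis) by log2 fold change, siDDX41 minus siCtrl (x axis, from -2 to 2; genes beyond are not drawn). The lower panel gives the log2 fold change of each AP-1 subunit gene with its SE, filled where called: JUN at 0.44, FOS at 0.36 and FOSL1 at 0.26 lie to the right of 0 and FOSL2 at -0.16 to the left, all inside the bulk of tested genes.

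The promoter table of RefSeq held 6 of the 7 members, each with 300 bases, from 250 before to 50 after the start. FOSL1 had no entry and was not searched. Both strands were searched, except for TATAAA, which was searched on the strand of the gene. Among these 6, TGACTCA was found in FOSL2 alone and in 4.92% of the 27305 promoters. TTACCTCA and TGACATCA were found in JUN alone, and in 0.718% and 2.71% of promoters. The core TGACG was present in each of the 6 members and in 25% of promoters, and TGACGTCA in JUND alone and in 1.98%. TATAAA occurred in FOS, FOSB and JUNB and in 7.71% of promoters, and none of the 6 held a CArG box, the element bound by serum response factor, in this window (1.29% of promoters). These matches describe letters and do not show that a factor was bound. Sites more than 250 bases before the start were not searched, so a gene without a match here can still hold the element further upstream. Of 381 tested genes with TGACTCA in the promoter, 34.9% were called higher and 32.5% lower, beside 32.4% and 33.6% among all 11491 tested genes with a promoter entry. The shares were 35.0% and 29.4% for the 3869 tested genes with TGACG, and 37.9% and 28.0% for the 364 with TGACGTCA, which also count among those with TGACG. For TGACATCA they were 30.6% and 38.3% (183 genes), for TTACCTCA 33.3% and 36.4% (66 genes), for TATAAA 36.3% and 31.6% (446 genes) and for the CArG box 29.7% and 31.4% (118 genes). These shares were not tested.

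Levels of different genes were compared per kb of exon. In siCtrl the order was FOSL2 (53.6 ± 0.97 CPM per kb; SD, n = 5), JUN (30.0 ± 1.84), JUND (17.3 ± 1.34), FOSL1 (12.5 ± 0.71), JUNB (9.16 ± 1.5), FOS (5.19 ± 0.25) and FOSB (0.227 ± 0.050). In siDDX41 the order was the same, with FOSL2 at 48.0 ± 2.04 and JUN at 40.7 ± 1.77 CPM per kb. No neighbours in either order overlapped between libraries on this scale, and FOSL1 (up to 16.2 CPM per kb) came close to JUND (from 16.5) in siDDX41. Per kb of the longest transcript, the ranges of JUNB and FOS overlapped in both groups, as did those of FOSL2 and JUN and of JUND and FOSL1 in siDDX41, so these pairs have no firm order.

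Within the Jun family, the summed level per kb was 56.4 ± 4.30 CPM in siCtrl and 68.8 ± 1.83 CPM in siDDX41 (SD, n = 5). JUN made up 53.2% ± 1.72 of the sum in siCtrl and 59.1% ± 1.84 in siDDX41. The share of JUND was 30.7% ± 1.27 in siCtrl and 25.2% ± 1.10 in siDDX41, although its own level differed by less than the spread between libraries. JUNB held 16.1% ± 1.47 and 15.7% ± 0.88.

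Within the Fos family, the sum was 71.6 ± 1.63 CPM per kb in siCtrl and 69.9 ± 1.56 in siDDX41, and the ranges overlapped. FOSL2 gave most of it, 74.9% ± 0.75 in siCtrl and 68.6% ± 1.80 in siDDX41. FOSL1 gave 17.5% ± 0.65 and 21.5% ± 1.33, FOS 7.26% ± 0.34 and 9.53% ± 0.58, and FOSB 0.317% ± 0.067 and 0.291% ± 0.038. The mRNA of Fra-2 and c-Jun thus led their families in all 10 libraries. These shares are descriptions of mRNA without a test, and in bulk RNA a change in all cells and a change in the share of cells that express a gene cannot be told apart.

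The genes whose profiles lay closest to those of JUN and FOSL2 were found by the root mean square difference of log2 CPM over the 10 libraries, centred on the siCtrl mean. For JUN they were KRT8, which encodes a keratin (0.05), PDLIM2, an adaptor of the actin cytoskeleton (0.05), and SGSH, a lysosomal sulfatase (0.05), against a median of 0.35 over all tested genes. KRT8 stood at 582 CPM in siCtrl and 802 CPM in siDDX41, a log2 fold change of 0.46 ± 0.04 (SE). A gene chosen for its likeness to JUN or FOSL2 over these libraries has to differ between groups much as they do, so its change is a description and no separate result. For FOSL2 they were PLEKHG3, TLCD5 and LIF (0.03 each, against a median of 0.25). LIF, a cytokine of the interleukin 6 family, stood at 149.6 and 136 CPM, a log2 fold change of -0.14 ± 0.03 (SE). With offsets for GC content the log2 fold change was -0.045 for LIF and -0.063 for PLEKHG3, and neither was then called. Of 20 alternatives, LIF and PLEKHG3 were each not called in 2 and TLCD5 in 4, among them DESeq2 (adjusted p = 0.0153).

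Fos and Jun proteins also pair with other leucine zipper proteins. Of 16 dimer partners 14 were tested, of which 6 were called higher and 3 lower, with a median log2 fold change of 0.00, as over all tested genes, of which 30.3% were higher and 32.1% lower. MAFF, a small Maf protein without an activation domain, stood at 13.4, 14.0, 13.2, 13.8 and 14.1 CPM in siCtrl and at 31.3, 30.7, 31.6, 28.9 and 30.9 CPM in siDDX41, far above the control range, and its log2 fold change of 1.17 ± 0.05 was larger than that of any AP-1 subunit gene. JDP2, a repressor that binds Jun proteins, rose from 31.9 ± 2.03 to 48.9 ± 2.58 CPM (SD, n = 5). MAF, the large Maf protein, fell from 44.5 ± 1.16 to 17.7 ± 1.23 CPM, with a log2 fold change of -1.33 ± 0.05, and BATF3 fell from 5.90 ± 0.70 to 4.06 ± 0.33 CPM, with its highest value, 7.10 CPM, in siCtrl replicate 2. BATF had no count in any library.

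The MAP kinase modules relay signals to FOS and JUN and phosphorylate their proteins. Of 25 genes 23 were tested, 7 were called higher and 9 lower, beside 30.3% higher and 32.1% lower over all tested genes, and the median log2 fold change was -0.03. MAPK3, which encodes the kinase ERK1, fell from 63.1 ± 1.33 to 31.6 ± 1.97 CPM (SD, n = 5), a log2 fold change of -0.998 ± 0.040. MAP2K6, a kinase that activates p38, fell from 12.7 ± 0.84 to 4.20 ± 0.39 CPM, a log2 fold change of -1.59 ± 0.08. DUSP5, a nuclear phosphatase of ERK, rose from 15.7 ± 0.77 to 35.0 ± 1.02 CPM, a log2 fold change of 1.15 ± 0.05. MAP2K2, which encodes MEK2, rose from 90.1 ± 6.99 to 123.9 ± 3.09 CPM, and like JUNB it was highest among the controls in siCtrl replicates 2 (99.6 CPM) and 5 (95.4 CPM).

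The list of factors known to bind the FOS or JUN promoter held 12 genes, and each was tested. Of these 5 were called higher and 6 lower, and the median log2 fold change was -0.05, in a comparison where 30.3% of all tested genes were higher and 32.1% lower. SRF, the serum response factor, fell from 61.4 ± 1.72 to 36.2 ± 2.80 CPM (SD, n = 5), a log2 fold change of -0.76 ± 0.04. ELK3, a partner of SRF, fell from 153.9 ± 3.67 to 106.5 ± 4.47 CPM. The other ELK genes of the list, named after their values were seen, were called higher. ELK1 went from 95.1 to 108.9 CPM, and ELK4 from 97.2 to 109.9 CPM with overlap between groups. STAT3 rose from 204 ± 4.41 to 261 ± 7.65 CPM, and MEF2D, which binds the JUN promoter, rose from 55.2 ± 0.96 to 68.4 ± 2.93 CPM.

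The other immediate early genes, which share the rapid induction of FOS and JUN, were called higher in 15 of 22 tested (24 listed) and lower in 2, with a median log2 fold change of 0.35, beside 30.3% higher, 32.1% lower and a median of 0.00 over all tested genes. CCN2 and CCN1, secreted matricellular proteins, rose from 570 ± 15.9 to 1503 ± 56.0 CPM and from 375 ± 8.72 to 963 ± 19.8 CPM (SD, n = 5), log2 fold changes of 1.40 ± 0.03 and 1.36 ± 0.03. SGK1, a kinase induced by serum and glucocorticoids, fell from 29.6 ± 1.13 to 24.5 ± 1.38 CPM. The 3 EGR genes, zinc finger factors often induced along with FOS, were named after their values were seen. EGR1 stood at 145 CPM in siCtrl and 186 CPM in siDDX41 and was called higher (log2 fold change 0.36), EGR3 stood at 1.01 and 0.558 CPM and was called lower (-0.85), and EGR2 stood at 3.59 and 2.92 CPM and was not called (-0.30).

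Of 25 genes known as AP-1 targets 23 were tested, 11 were called higher and 9 lower, with a median log2 fold change of 0.19, beside 30.3% higher, 32.1% lower and a median of 0.00 over all tested genes. MMP3, which encodes the matrix metalloproteinase stromelysin, stood at 11.2, 10.9, 8.45, 8.34 and 8.96 CPM in siCtrl and at 45.6, 31.7, 46.4, 38.0 and 34.1 CPM in siDDX41, with a log2 fold change of 2.03 ± 0.15 and a wide spread between the knockdown libraries. EREG, a ligand of the EGF receptor, rose from 2.7 ± 0.36 to 6.26 ± 1.19 CPM. GJA1, which encodes connexin 43, fell from 153.8 ± 4.46 to 34.6 ± 3.53 CPM, a log2 fold change of -2.15 ± 0.05, and TGFB1 fell from 147.6 ± 8.58 to 89.1 ± 3.29 CPM.

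The list of genes for the turnover of Fos and Jun proteins and mRNA also held MEN1, included as a gene whose product binds a Jun protein. Of the 14 tested genes of this list, 5 were called higher and 3, MEN1 among them, lower, with a median log2 fold change of 0.05. Over all tested genes 30.3% were higher and 32.1% lower, with a median of 0.00. TRIB1, which guides the ubiquitin ligase COP1 to its substrates, rose from 21.1 ± 0.85 to 44.9 ± 1.68 CPM (SD, n = 5), a log2 fold change of 1.09 ± 0.04. ZFP36, which binds AU-rich elements such as that of the FOS mRNA, rose from 4.28 ± 0.80 to 7.11 ± 0.32 CPM and was also counted among the immediate early genes. MEN1, whose product menin binds JunD, fell from 70.6 ± 1.99 to 44.5 ± 1.38 CPM while JUND was not called. KHSRP, another protein that binds AU-rich elements, fell from 232 ± 10.2 to 197.9 ± 4.41 CPM. A fixed rule picked 2 higher and 2 lower genes for each list (1 lower among the immediate early genes). The picked genes each had an edgeR adjusted p-value under 0.01 and no overlap between groups, because the rule required it. The rule also required a mean of at least 5 CPM in either group, which EREG and ZFP36 met only in siDDX41, where they were high, and BATF3 and MAP2K6 only in siCtrl, where they were high, so the choice of these 4 leaned on their change.

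**Figure D4:**
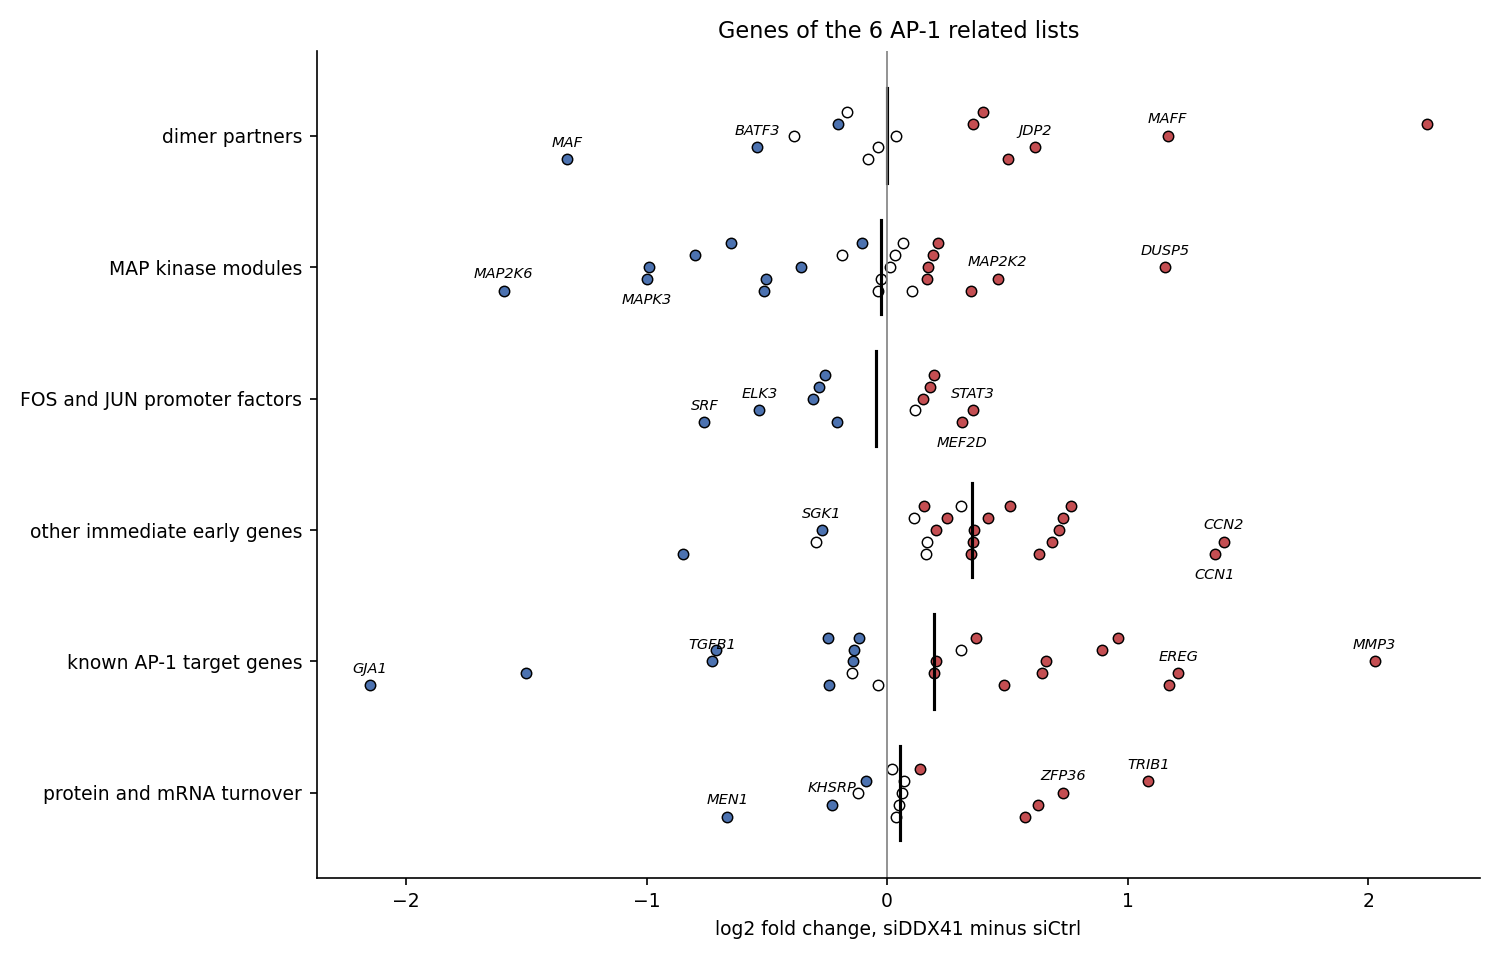
log2 fold change, siDDX41 minus siCtrl (x axis), of each tested gene of the 6 AP-1 related lists (y axis). Filled points were called, red higher and blue lower, open points were not, the black lines are the medians of the lists, and the named genes are labelled; the immediate early genes have the highest median, at 0.35.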

How the data were processed

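Stranded mRNA libraries were sequenced, and the authors aligned the reads to hg38 and summed them by gene; the deposited values are raw counts. The submitters' processing notes name bcl2fastq 2.19, STAR 2.7 and featureCounts 1.6. The strand and multi-mapping settings are not given in the sources used here. Genes were matched by Ensembl identifier to GENCODE release 44 for names, positions, exon lengths and GC content, and 98.7% of tested genes matched. The paper names an earlier GENCODE release for its mapping of reads. Levels per kb therefore set the authors' counts against exon lengths from a later release. The groups of the labels were compared in R 4.3.3 with edgeR 4.0.16 (filterByExpr, TMM scaling, robust quasi-likelihood fit and test) on all genes, with Benjamini-Hochberg adjustment over the 16143 tested and calls at an adjusted p-value under 0.01. SEs come from the fold change and its F statistic. CPM uses TMM-scaled totals, and permutation tests (scipy 1.17.1) used log2(CPM + 0.5). Alternatives were DESeq2 1.42.0, limma-voom (limma 3.58.1), other scaling and filters, the replicate number as a block, offsets that remove each library's trend on transcript GC content, and leaving out libraries. The fits were first tested on simulated data in which 200 genes were changed 1.5-fold. In the real comparison 10068 genes were called, and the simulated data held no trend on GC content. The simulation therefore could not check the scaling or the GC offsets under such conditions. Promoter sequences are from RefSeq (GRCh38.p14).

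The named genes are the members, DDX41, up to 2 genes called higher and 2 called lower per list (largest change, group mean of at least 5 CPM, no overlap between groups), and the 3 genes closest in profile to JUN and FOSL2. The members and lists were chosen with earlier results of these data known.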

Additional observations from a re-analysis of the deposited data

Results flagged for a closer look

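None of the AP-1 subunit genes had a library far from the others of its group by a gap test (Dixon, 5 libraries per group), run on the members, DDX41 and the other named genes. The test looks for 1 library set apart, so it could not flag JUNB, where siCtrl replicates 2 and 5 were high together (20.2 and 19.2 CPM). Among 74 groups of 5 libraries, 6 had 1 library set apart, where chance alone gives about 1 in 20. In siCtrl replicate 2, BATF3 (7.10 CPM) lay above the other controls and MAP2K6 (11.2 CPM) and STAT3 (197 CPM) lay below them. ELK3 was high in siDDX41 replicate 4 (114 CPM), MEN1 low in siDDX41 replicate 1 (42.1 CPM) and KHSRP high in siDDX41 replicate 3 (205 CPM).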

How the results depend on the processing

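JUN, FOS and FOSL1 were called higher under all 9 planned settings other than leaving out a library and in all 10 fits without 1 library, with log2 fold changes in the latter of 0.42 to 0.47, 0.34 to 0.38 and 0.24 to 0.29. With GC content offsets they were 0.53, 0.43 and 0.36. FOSL2 stayed lower without any 1 library (-0.18 to -0.13); with the replicate block and GC content offsets together it was -0.0817 and not called, which left 0 members lower. JUNB passed the threshold with DESeq2 (0.25), limma-voom (0.25), no filter (0.25), GC content offsets (0.28), replicate block with GC content offsets (0.28) and without siCtrl replicates 2 and 5 (0.42, a setting chosen after seeing the data); without 1 library it ranged from 0.18 to 0.32, so that 3 to 4 members were called higher. JUND changed sign with no scaling factor (-0.00999), a filter at 1 CPM (-0.000650), GC content offsets (-0.0434) and replicate block with GC content offsets (-0.0448), and ranged from -0.0345 to 0.0279 without 1 library; FOSB was 0.0556 without siCtrl replicates 2 and 5 and ranged from -0.25 to -0.0411 without 1 library. Neither was called in any fit. The causes were not tested. The list of turnover genes had 2 genes called lower instead of 3 with DESeq2, with the replicate block and in 7 of the 10 fits without 1 library; the other list counts moved by at most 1 gene in these fits and by at most 2 without siCtrl replicates 2 and 5. With the longest transcript as length, FOSL2 made up 72.2% and 65.4% of the Fos family in siCtrl and siDDX41, and JUN 55.8% and 61.6% of the Jun family. Libraries with the same replicate number did not deviate together (correlations of -0.078 to 0.0598), and the fit with the replicate block called 4790 genes higher and 5097 lower, against 4890 and 5178, and the same 4 AP-1 members. Depth limits FOSB, with 21 to 40 counts per library.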
